A study of Mus musculus with 2 samples.

Results

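The cytosolic ribosomal protein genes of the mouse were examined for promoter peaks of SRCAP. They were taken by name, as the protein-coding genes of GENCODE vM21 on GRCm38 whose symbol is Rpl or Rps with a number and an optional a, x or l, together with Rpsa, Rplp0, Rplp1 and Rplp2. This gave 80 of 21951 protein-coding genes, 49 of the large subunit and 31 of the small subunit. SRCAP is the ATPase of a remodelling complex that places the histone variant H2A.Z in nucleosomes, and it was mapped by CUT&RUN, in which an antibody brings a nuclease to the bound protein and the released DNA is sequenced. The cells were SYAT mouse embryonic stem cells (mESCs), derived from CGR8 cells by fusing YPet and an auxin-inducible degron (AID) to SRCAP on both alleles and by adding the receptor OsTir1, starting from 1 homozygous clone. One library was made with an antibody against GFP (Abcam ab290), which also recognises YPet, and one with an antibody against SRCAP itself (Kerafast ESL-103). SYAT cells were routinely grown in auxinole, which limits basal degradation of the tagged protein, and for the last days before experiments in serum with LIF; the labels do not give a treatment per library. Both groups therefore share the tag, the degron and the receptor, and each has 1 library of 100000 cells, so that no value has a replicate and no test between antibodies was possible. The label of the GFP library gives CUT&RUN as its assay, although the study's methods name this antibody for CUT&Tag and not for CUT&RUN.

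Ribosomal protein genes encode the proteins of the cytosolic ribosome, and in growing cells they are among the most transcribed genes. Their promoters are compact and rich in CpG, and their transcripts typically begin within a run of pyrimidines, the 5′ terminal oligopyrimidine (TOP) motif, through which their translation follows mTOR signalling. Many of them host small nucleolar RNAs (snoRNAs) in their introns, and the genome holds many processed copies of them.

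The deposited data were 1 list of peaks per library, with 28718 peaks for the GFP antibody and 28167 for the SRCAP antibody. Each peak has a score, a whole number of which the authors do not state the meaning; its median was 47 in both lists, and it is used here as a percentile within its own list. Read counts are not part of the lists, and the sequencing depth is therefore unknown. Expression values are absent too, and the labelled cell type could not be checked against marker genes. A promoter peak is a peak whose midpoint lies from 1000 bp upstream to 500 bp downstream of any annotated transcription start site (TSS) of the gene. Distances are given to the nearest TSS of the gene, negative upstream.

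The sequences at the TSS of members with peaks in both lists and in neither list are shown first, because the pyrimidine run is the feature by which these promoters are known. Each window runs from 40 bases before to 20 bases after the start of the main transcript on GRCm38, is written 5′ to 3′ along the gene, and has its longest pyrimidine run near the TSS in capitals. Rpl37a (chr1:72711250-72711309, plus strand) and Rpl37 (chr15:5116605-5116664, plus strand) had peaks in both lists, with runs of 13 and 11 letters. Rpl21 (chr5:146832850-146832909, plus strand) had the shortest run among the genes shown with peaks in both lists, 2 letters. Its strongest peaks lay 1911 bp (GFP) and 2292 bp (SRCAP) downstream of this main TSS.
Rpl37a: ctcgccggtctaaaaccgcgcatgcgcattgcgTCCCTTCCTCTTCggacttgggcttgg
Rpl37: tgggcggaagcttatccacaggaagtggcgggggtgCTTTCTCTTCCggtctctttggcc
Rpl21: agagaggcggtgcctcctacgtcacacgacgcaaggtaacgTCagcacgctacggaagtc
Rpl31 (chr1:39367802-39367861, plus strand) and Rpl36 (chr17:56613376-56613435, plus strand) had a promoter peak in neither list, with runs of 13 and 8 letters. Rps4x (chrX:102189375-102189434, minus strand) was also in neither list and had a run of 4 letters. Rpl36 had a GFP peak at +512 bp and a SRCAP peak at +504 bp, just beyond the window.
Rpl31: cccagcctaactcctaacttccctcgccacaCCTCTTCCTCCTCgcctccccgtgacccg
Rpl36: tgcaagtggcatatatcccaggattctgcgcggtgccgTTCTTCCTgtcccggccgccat
Rps4x: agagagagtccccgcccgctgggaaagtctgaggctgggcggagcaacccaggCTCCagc
The genes shown were chosen within each class, either for a long run over the TSS or for the shortest run. That long and short runs appear in both classes follows from this choice and says nothing about the classes. The windows are set on annotated starts, so a short run does not show that a gene lacks the TOP motif.

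The DNA under a pair of overlapping GFP and SRCAP peaks is shown for 2 genes whose shared stretch lay outside annotated exons and whose scores were above the median of both lists. For Rpl29 the stretch had 283 bases (chr9:106429128-106429410, plus strand) and for Rpl11 it had 244 bases (chr4:136053491-136053734, minus strand).
Rpl29: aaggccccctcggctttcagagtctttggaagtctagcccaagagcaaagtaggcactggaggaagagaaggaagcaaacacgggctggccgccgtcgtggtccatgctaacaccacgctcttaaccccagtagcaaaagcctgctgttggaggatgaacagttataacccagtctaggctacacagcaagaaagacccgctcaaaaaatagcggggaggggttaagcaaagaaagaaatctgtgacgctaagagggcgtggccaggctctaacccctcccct
Rpl11: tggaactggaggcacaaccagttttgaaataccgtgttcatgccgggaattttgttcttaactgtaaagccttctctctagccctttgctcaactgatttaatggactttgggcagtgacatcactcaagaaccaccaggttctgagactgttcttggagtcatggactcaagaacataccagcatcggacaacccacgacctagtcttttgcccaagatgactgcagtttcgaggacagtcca
Neither stretch held the letters CCAAT on either strand. Both stretches ended upstream of the main transcript, 129 bases before its start in Rpl29 and 98 in Rpl11.

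A promoter peak was listed for 42 of the 80 ribosomal protein genes with the GFP antibody (52.5%, 95% Wilson interval 41.7 to 63.1) and for 38 with the SRCAP antibody (47.5%, 36.9 to 58.3). Over all protein-coding genes, the shares were 35.0% and 35.6%. Both lists held a peak for 29 members (36.2%, 26.6 to 47.2), against 27.0% of all genes, and in 27 of these 29 (33.8% of members) the peaks of both lists overlapped by at least 1 bp, against 25.6% of all genes. Neither list held one for 29 members (36.2%), against 56.4% of all genes. The interval of the members' share lay above the background in each list on its own and included it for peaks in both lists. These intervals cover counting error only, and the background takes in all protein-coding genes, whether or not they are active in mESCs. Genes with more annotated TSS also have more windows, and the background was not matched for this number. With the main TSS only, 39 members had a GFP peak, 33 a SRCAP peak and 26 both, and the background was not computed at that setting. When only peaks that reached their list's median score were used, 24 members (30.0%, 21.1 to 40.8) kept a GFP peak, 21 (26.2%, 17.9 to 36.8) a SRCAP peak and 15 (18.8%, 11.7 to 28.7) both, against 22.2%, 23.5% and 16.0% of all genes. At this stricter threshold the intervals of all 3 shares included the background.

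The 29 genes in both lists included Rpl3, Rpl10, Rpl11, Rpl12, Rpl14, Rpl18, Rpl19, Rpl21, Rpl22, Rpl26, Rpl28, Rpl29, Rpl32, Rpl37, Rpl37a, Rpl41 and Rplp2 of the large subunit and Rps2, Rps3, Rps9, Rps13, Rps14, Rps19, Rps25 and Rps27l of the small subunit. The 13 genes with a GFP peak only were Rpl5, Rpl9, Rpl10l, Rpl24, Rpl35, Rpl36a, Rpl39, Rplp0, Rps15a, Rps16, Rps23, Rps26 and Rps29. The 9 genes with a SRCAP peak only included Rpl10a, Rpl13a, Rpl15, Rpl34, Rplp1, Rps24, Rps27a and Rps28. The 29 genes in neither list were Rpl3l, Rpl4, Rpl6, Rpl7, Rpl7a, Rpl8, Rpl13, Rpl17, Rpl23, Rpl23a, Rpl27, Rpl27a, Rpl30, Rpl31, Rpl35a, Rpl36, Rpl38, Rpl39l, Rps4x, Rps6, Rps7, Rps10, Rps12, Rps15, Rps18, Rps20, Rps21, Rps27 and Rpsa. Of the members with a GFP peak, 69.0% also had a SRCAP peak, against 77.2% of all genes with a GFP peak, and of those with a SRCAP peak, 76.3% also had a GFP peak, against 75.8%.

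**Figure D1:**
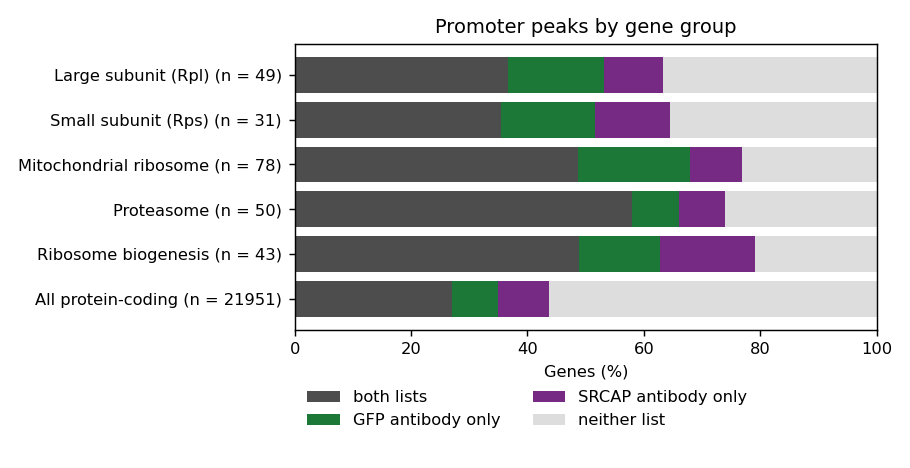
Share of genes (%) with a promoter peak in both lists, with the GFP antibody only, with the SRCAP antibody only or in neither list, for the ribosomal protein genes of the large and the small subunit, for 3 other gene groups and for all protein-coding genes, with the number of genes in parentheses. The bars of the large and small subunits are nearly alike, with 36.7% and 35.5% of genes in both lists, and those of the 3 other groups reach 48.7% or more.

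The 2 subunits differed little. Of the 49 large subunit genes, 26 had a GFP peak (53.1%, 39.4 to 66.3) and 23 a SRCAP peak (46.9%, 33.7 to 60.6), and of the 31 small subunit genes, 16 (51.6%, 34.8 to 68.0) and 15 (48.4%, 32.0 to 65.2). Both lists held 18 large subunit genes (36.7%) and 11 small subunit genes (35.5%). The intervals of the subunits overlapped throughout.

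The acidic stalk of the large subunit, which recruits and activates the translational GTPases, is formed by Rplp0 with Rplp1 and Rplp2, and its 3 genes fell into 3 classes. Rplp2 was in both lists, with a GFP peak at chr7:141447301-141447592 (score 123, percentile 91.9) and a SRCAP peak at chr7:141447269-141447557 (score 57, percentile 61.7). Both midpoints lay just downstream of the TSS, at +76 and +43 bp. Rplp0, the anchor of the stalk, had a GFP peak only, at chr5:115559257-115559433 (score 30, percentile 21.5, −122 bp), with the nearest SRCAP midpoint 22287 bp away. Rplp1 had a SRCAP peak only, at chr9:61914629-61914814 (score 60, percentile 66.2, −179 bp), and its nearest GFP midpoint was 7452 bp downstream.

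The 5S particle joins Rpl5 and Rpl11 to the 5S rRNA, and both proteins also bind Mdm2 when ribosome assembly is disturbed. Rpl11 was in both lists, with peaks at chr4:136053491-136053734 (GFP, score 49, percentile 54.3, −184 bp) and chr4:136053427-136053742 (SRCAP, score 60, percentile 66.2, −156 bp), and the GFP peak lay wholly within the SRCAP peak. Rpl5 had a GFP peak only, which lay far upstream at chr5:107899422-107900095 (score 51, percentile 56.2, −744 bp). No SRCAP midpoint was closer to Rpl5 than 14975 bp.

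Of the 7 genes for proteins around the exit of the peptide tunnel, where the nascent chain meets chaperones and the signal recognition particle, Rpl19 and Rpl26 were in both lists, Rpl35 and Rpl39 had a GFP peak only, and Rpl17, Rpl23a and Rpl31 were in neither. Of the 14 genes for proteins of the head of the small subunit, 5 were in both lists, among them Rps3, Rps19 and Rps25. Rps16 and Rps29 were in the GFP list only, Rps27a and Rps28 in the SRCAP list only, and Rps10, Rps12, Rps15, Rps18 and Rps20 in neither. Of the 6 genes for proteins at the entry and exit of the mRNA channel, Rps2, Rps3 and Rps14 were in both lists, Rps26 in the GFP list, Rps28 in the SRCAP list and Rpsa in neither. Of 18 genes that are mutated in Diamond-Blackfan anaemia, 9 had a GFP peak (50.0%), 8 a SRCAP peak (44.4%), 5 both (27.8%) and 6 neither (33.3%). Rps19, the gene in which such mutations are found most often, was among the 5. Of the 4 protein-coding paralogues, Rps27l was in both lists, Rpl10l, an intronless copy of Rpl10 with a role in the male germ line, had a GFP peak only, and Rpl3l, the muscle form of Rpl3, and Rpl39l were in neither.

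Of the 29 members that host snoRNAs in the annotation, 15 had a GFP peak (51.7%), 14 a SRCAP peak (48.3%) and 12 both (41.4%). Of the other 51 members, these were 27 (52.9%), 24 (47.1%) and 17 (33.3%). The shares of both kinds of gene lay within each other's intervals. The 14 members with the TSS of another protein-coding gene within 1 kb had a peak in both lists in 3 cases (21.4%, 7.57 to 47.6), the other 66 in 26 cases (39.4%, 28.5 to 51.5).

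Genes for ribosome biogenesis, RNA polymerase I, the mitochondrial ribosome and the proteasome had higher shares than the ribosomal protein genes, with intervals that overlapped theirs. Of 43 genes for ribosome biogenesis, such as the nucleolar factors Npm1 and Fbl, 27 had a GFP peak (62.8%, 47.9 to 75.6), 28 a SRCAP peak (65.1%, 50.2 to 77.6) and 21 both (48.8%). Of 11 genes for RNA polymerase I and its factors, which make the rRNA, 8 had a GFP peak, 6 a SRCAP peak and 6 both. Of 78 genes for proteins of the mitochondrial ribosome, 53 had a GFP peak (67.9%, 57.0 to 77.3), 45 a SRCAP peak (57.7%, 46.6 to 68.0) and 38 both (48.7%, 37.9 to 59.6). Of 50 proteasome genes, 33 had a peak in each list (66.0%, 52.2 to 77.6) and 29 in both (58.0%, 44.2 to 70.6). Of 6 further genes for proteins of the ribosome or close paralogues that the naming rule leaves out, 3 had a GFP peak (50.0%, 18.8 to 81.2). A SRCAP peak was listed for 2 (33.3%, 9.68 to 70.0) and both for 2 (33.3%, 9.68 to 70.0). These wide intervals included the shares of the members. Among them, Rack1 and Rpl7l1 were in both lists, and Fau, Rpl22l1 and Rpl36al in neither.

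Most member peaks had their midpoint upstream of the nearest annotated TSS of the gene. The 47 GFP peaks at members had a median midpoint of −216 bp (95% order-statistic interval −247 to −146), against −116 bp (−122 to −110) for the 7683 promoter peaks of all protein-coding genes. The 42 SRCAP peaks had a median of −139 bp (−179 to −99), against −79 bp (−84 to −74) for 7781 promoter peaks. With the GFP antibody 39 of 47 member peaks had their midpoint upstream (83.0%, all genes 69.9%), and with the SRCAP antibody 38 of 42 (90.5%, all genes 70.1%). Midpoints within 200 bp of the TSS on either side made up 42.6% of the member GFP peaks (all genes 58.1%) and 66.7% of the member SRCAP peaks (all genes 67.7%). The lowest SRCAP midpoint at a member was at −275 bp, whereas GFP midpoints reached −877 bp, and among all genes 14.7% of SRCAP midpoints lay at −300 bp or farther upstream. Because the sign is taken to the nearest of any annotated TSS, some midpoints counted as upstream lay inside the main transcript, such as those of Rps2 and Rpl21. The number of annotated TSS was not matched between members and all genes. The share upstream of the main TSS was not computed for all genes. These are descriptions of peaks in 1 library per antibody.

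**Figure D2:**
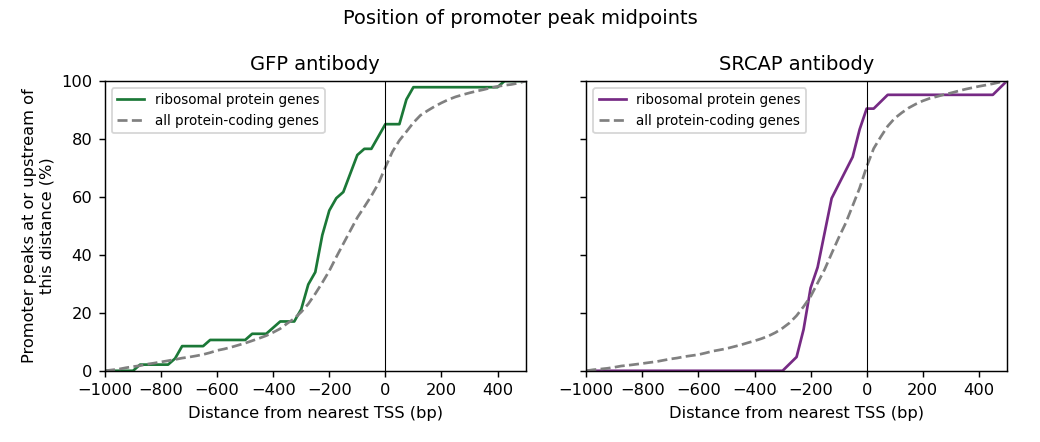
Cumulative share of promoter peaks (%) against the distance of their midpoint from the nearest TSS (bp, negative upstream), for ribosomal protein genes (solid line) and all protein-coding genes (dashed line), with the GFP antibody on the left and the SRCAP antibody on the right. At the TSS the solid lines stand at 85.1% and 90.5% against 70.2% and 70.4%, and in the SRCAP panel the solid line starts below the dashed one, at 0% against 14.7% at −300 bp, and crosses it near −200 bp.

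Relative to the main transcript, the strongest peak had its midpoint upstream in 30 of the 42 GFP genes and in 31 of the 38 SRCAP genes. The remaining midpoints lay in a UTR (7 and 3 genes), in a coding exon (2 and 2) or in an intron after the first (3 and 2). The peak covered the TSS of the main transcript in 11 GFP genes and in 12 SRCAP genes. In 5 GFP genes and 4 SRCAP genes there was more than 1 promoter peak. For a few peaks another protein-coding gene had the nearer TSS, namely Sphk2 for the GFP peak of Rpl18, Arpc5l for that of Rpl35, Trappc4 for both peaks of Rps25, Ndufa7 for the SRCAP peak of Rps28 and Nkiras1 for the weaker SRCAP peak of Rpl15. Without such peaks, a choice made after seeing the data, 39 members had a GFP peak, 36 a SRCAP peak and 27 both.

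**Figure D3:**
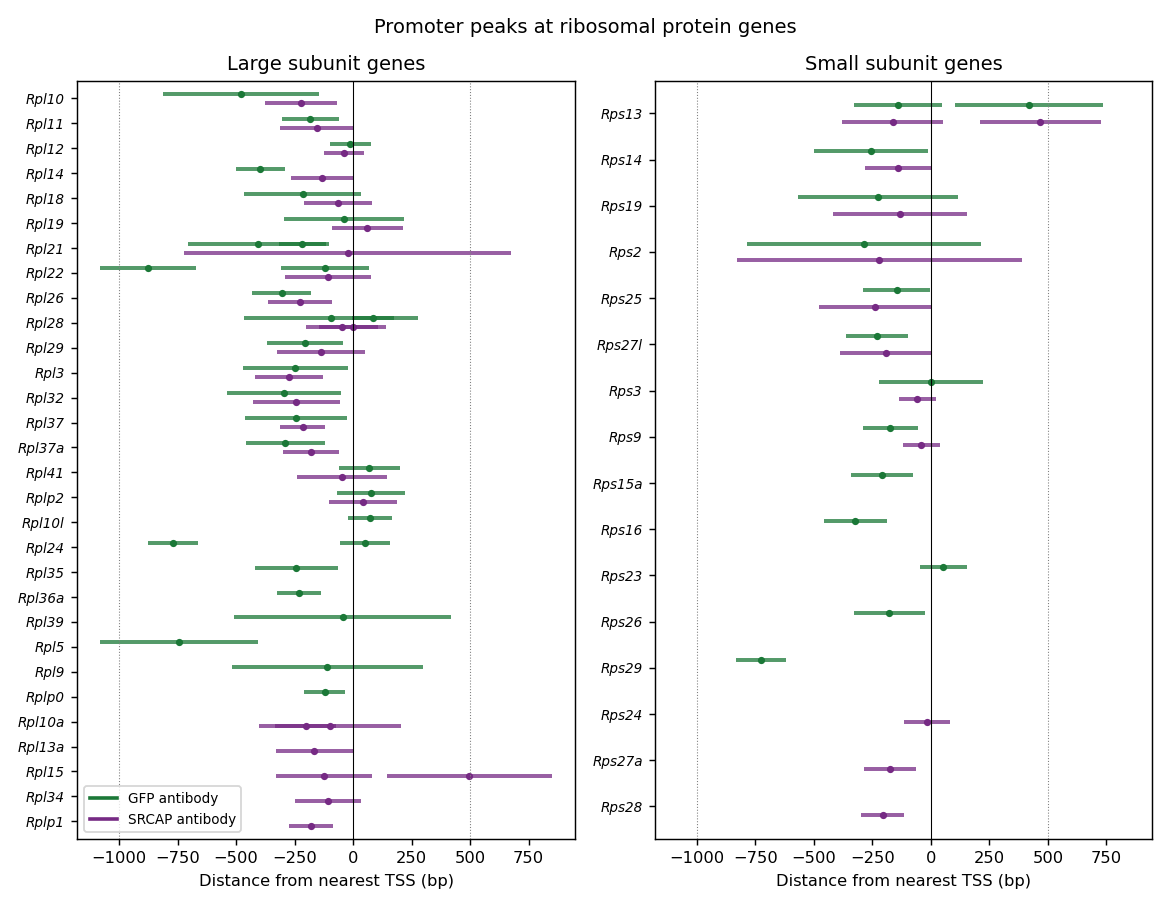
Span of the promoter peaks (lines) and their midpoints (points) of the genes named in the text along the distance from the nearest TSS of the gene (bp, negative upstream), for large subunit genes on the left and small subunit genes on the right, with the GFP antibody in green and the SRCAP antibody in purple. Dotted lines mark the window of −1000 to +500 bp, and most lines end left of the TSS or just across it, with those of Rpl5 and Rps29 set apart at −744 and −728 bp.

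In the genes of both lists, peaks of both antibodies mostly marked the same place. In the 27 genes with overlapping peaks, midpoints were a median of 68 bp apart (14 to 381), and in 18 of the 27 they were at most 100 bp apart. The GFP peak was the wider one in 17 of the 27 pairs. Rpl14 was an exception, with a GFP peak at −396 bp and a SRCAP peak at −133 bp that did not touch.

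Rps2, which lines the entry of the mRNA channel, had a GFP peak at chr17:24720662-24721661 (score 136, percentile 93.7) and a SRCAP peak at chr17:24720620-24721836 (score 231, percentile 98.3). These midpoints lay at −288 and −221 bp of an internal TSS but 1051 and 1118 bp downstream of the main one, in a coding exon of the main transcript. Rps13, of the body of the small subunit, had peaks at chr7:116334148-116334524 (GFP, score 130, percentile 93.0, −141 bp) and chr7:116334144-116334574 (SRCAP, score 132, percentile 92.8, −164 bp). A second pair of peaks lay in an intron of Rps13, at +419 and +467 bp of another TSS, with scores of 23 (GFP) and 82 (SRCAP). Both percentiles of Rps2 and of Rps13 were thus above 90.

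Rps19 had peaks at chr7:24883805-24884487 (GFP, score 84, percentile 82.0, −225 bp) and chr7:24883953-24884524 (SRCAP, score 97, percentile 85.8, −133 bp), and both covered the main TSS. Rpl29 had peaks at chr9:106429088-106429410 (GFP, score 75, percentile 77.0, −205 bp) and chr9:106429128-106429504 (SRCAP, score 82, percentile 80.1, −138 bp). Rps25, a protein of the head that some viral internal ribosome entry sites need, had peaks at chr9:44407371-44407657 (GFP, score 117, percentile 90.8, −146 bp) and chr9:44407181-44407662 (SRCAP, score 72, percentile 73.2, −239 bp), with the TSS of Trappc4 86 and 59 bp from their midpoints. Rpl21 had its strongest peaks at chr5:146834500-146835103 (GFP, score 63, percentile 69.2, −405 bp) and chr5:146834484-146835880 (SRCAP, score 84, percentile 80.6, −24 bp). Both of these lay in a later intron, 1911 and 2292 bp downstream of the main TSS, and only a weak GFP peak (score 25, percentile 11.7) lay 218 bp upstream of that TSS. Rps14, of the small subunit platform, had midpoints at −256 bp (GFP, score 98, percentile 86.6) and −140 bp (SRCAP, score 66, percentile 68.7).

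Rpl22, whose loss in mice impairs T cell development, had the highest GFP score of all members, 176 (percentile 96.8), at chr4:152325436-152325809, and a SRCAP score of 61 (percentile 66.6) at chr4:152325453-152325819. The midpoints lay at −120 and −106 bp, the closest pair of all, and a further weak GFP peak (score 28) lay at −877 bp. Rpl18 had peaks at chr7:45714992-45715491 (GFP, score 59, percentile 65.2, −216 bp) and chr7:45715247-45715536 (SRCAP, score 64, percentile 67.8, −66 bp), with midpoints at −2830 and −2680 bp of its main TSS. The order of the antibodies was thus not the same in every gene.

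At the other end stood Rpl14 and Rpl37. Rpl14 had a GFP peak at chr9:120570945-120571151 with a score of 21 (percentile 4.76) and a SRCAP peak at chr9:120571179-120571444 with a score of 29 (percentile 25.2). Rpl37 had peaks at chr15:5116183-5116617 (GFP, score 24, percentile 10.6, −245 bp) and chr15:5116335-5116525 (SRCAP, score 42, percentile 45.5, −215 bp). In both genes the GFP peak had the lower percentile.

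Across the 29 genes of both lists, the score percentiles of the strongest GFP and SRCAP peaks had a Spearman rho of 0.609 as a description over genes of the same libraries, which are not replicates. The GFP percentile was the higher in 13 genes and the SRCAP percentile in 16. In 19 of the 29 genes both percentiles were within 20 points, and in 15 both exceeded 50. The widest gaps toward GFP were at Rpl26, with percentiles of 90.3 (GFP) and 28.0 (SRCAP), Rpl10, with 93.0 and 44.5, and Rpl28, with 70.4 and 28.0. The widest toward SRCAP was at Rpl37. Over all 47 GFP and 42 SRCAP member peaks the median percentile was 52.4 (37.5 to 69.9) and 54.5 (35.5 to 66.2), against 58.1 and 60.3 over the promoter peaks of all genes. Member peaks thus had scores near the middle of their lists, and no member score exceeded 176 (GFP) or 231 (SRCAP). Their widths were also near those of all promoter peaks, with medians of 338 bp against 334 bp (GFP) and 297.5 bp against 296 bp (SRCAP).

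**Figure D4:**
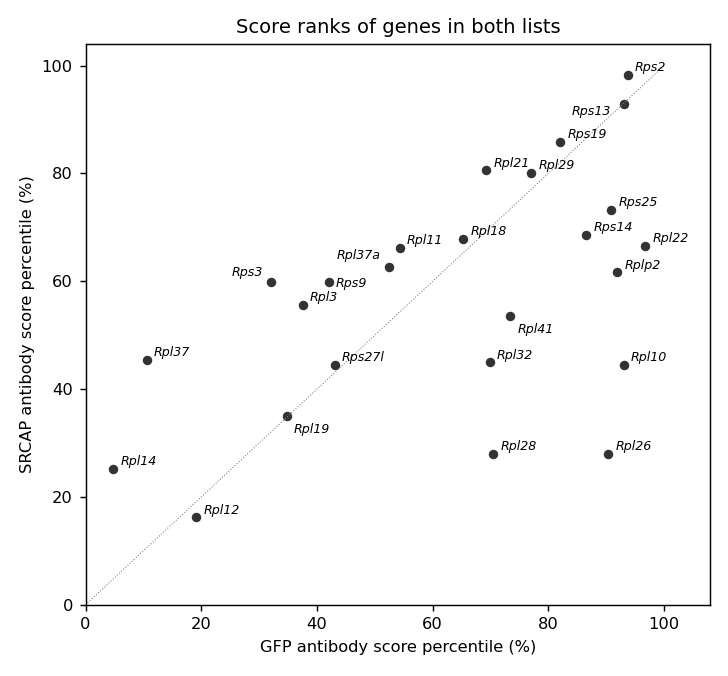
Score percentile within the SRCAP list (%, vertical axis) against that within the GFP list (%, horizontal axis) for the strongest promoter peak of 25 of the 29 genes in both lists. The dotted line marks equal percentiles, with Rps2 and Rps13 at the upper right, Rpl14 and Rpl12 at the lower left, and Rpl26 and Rpl10 farthest to the right of the line.

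Among the 13 genes with a GFP peak only, the highest scores were those of Rps26 (119, percentile 91.4, chr10:128626775-128627076, −178 bp) and Rps29 (114, percentile 90.3, chr12:69159808-69160020, −728 bp). Rps26 lies at the exit of the mRNA channel, and Rps29 is a small zinc-binding protein of the head. The scores were intermediate for Rps15a (70, chr7:118116267-118116530, −210 bp), Rpl36a (54, chrX:134585330-134585516, −231 bp), Rpl35 (45, chr2:39005188-39005542, −243 bp) and Rps23, a protein of the decoding centre (45, chr13:90922912-90923111, +53 bp). Lower scores were those of Rps16 (41, chr7:28350195-28350462, −324 bp), Rpl10l (40, chr12:66284234-66284421, +74 bp, within its coding exon), Rpl39 (35, chrX:37084983-37085909, −44 bp) and Rpl24 (29, chr16:55966221-55966434, +52 bp, with a further peak of score 24 in an intron). The lowest was that of Rpl9 (28, chr5:65388617-65389432, −110 bp of an internal TSS and 2420 bp downstream of the main one), and Rpl5 and Rplp0 were described above. In 5 of the 14 GFP peaks of these genes the score was at or above the list's median. The nearest SRCAP midpoint was at −2218 bp for Rpl35, at −5121 bp for Rps26 and at +6083 bp for Rps16.

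Among the 9 genes with a SRCAP peak only, Rpl13a, which besides its place in the ribosome is known as a translational silencer in macrophages, had the highest score (84, percentile 80.6, chr7:45128764-45129091, −166 bp). Its nearest GFP peak (chr7:45125841-45126111) had its midpoint at +561 bp of an internal TSS, 61 bp beyond the window. That peak lay inside the gene, far downstream of the main TSS at chr7:45128761. Rpl15 had a stronger peak at chr14:18269270-18269975 (score 63, +497 bp, in an intron of the main transcript), just inside the window, and a weaker one at −125 bp (score 40). The stronger one overlapped a GFP peak whose midpoint lay at +547 bp, just outside. Rpl15 was therefore kept out of the genes in both lists by the downstream limit of the window. For Rpl13a this limit also decided the class, but its SRCAP and GFP peaks lay apart. Other peaks were those of Rps27a, which is made as a fusion with ubiquitin (score 35, chr11:29548173-29548394, −174 bp), Rps24 (34, chr14:24487012-24487206, −16 bp of an alternative TSS and −3609 bp of the main one), Rpl34 (33, chr3:130730366-130730646, −108 bp), Rpl10a of the L1 stalk (33, chr17:28328140-28328397, −203 bp, and a further one of score 29) and Rps28 (25, chr17:33824677-33824860, −206 bp). In 3 of the 11 SRCAP peaks of these genes the score was at or above the list's median. Peaks found with 1 antibody thus had lower scores as a rule than those of genes in both lists, where 19 of 33 GFP and 19 of 31 SRCAP peaks were at or above it, and the same held among all genes (31.4% against 66.5% for GFP, 38.8% against 68.2% for SRCAP).

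Of the 29 genes in neither list, 12 had a peak midpoint within 2500 bp of a TSS, and in 8 of these the ribosomal protein gene itself had the nearest coding TSS. Rpl36 missed the window by a few bases. Its GFP peak at chr17:56613646-56614210 (score 132) and its SRCAP peak at chr17:56613655-56614185 (score 121) lay at +512 and +504 bp inside the gene, with scores as high as those of the leading genes in both lists. Rpl27 had peaks at chr11:101446238-101446753 (GFP, score 60, +1621 bp) and chr11:101446388-101446585 (SRCAP, score 40, +1612 bp). Rpsa, which is also known as the laminin receptor, had a weak GFP peak at chr9:120130916-120131130 (score 16, +905 bp) with its nearest SRCAP midpoint at −17042 bp. Rpl30 and Rpl23 had weak SRCAP peaks only, at chr15:34440601-34440782 (score 22, +974 bp) and chr11:97777290-97777496 (score 15, +1242 bp). The distances of Rpl27, Rpsa, Rpl30 and Rpl23 were to an internal TSS and not to the main one. The peaks of Rpl27 and Rpl23 lay past the end of the gene. Rpl13, Rpl6 and Rpl17 had GFP peaks only, at chr8:123100533-123100754 (score 39, −1707 bp), at chr5:121201903-121202081 (score 26, −2489 bp) and at +2329 bp (score 34).

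Near 4 of the 12 genes the peak was closer to the TSS of a neighbour. For Rps18, Rpl4 and Rpl7a the distances given here were to an internal TSS and not to the main one, and the peaks lay past the end of the gene. The peaks near Rps18 (GFP chr17:33951221-33952295, score 71, +783 bp; SRCAP chr17:33951225-33951980, score 56, +939 bp) lay 270 and 114 bp from the TSS of B3galt4. Those near Rpl4 (GFP chr9:64178757-64179625, score 157, +2056 bp; SRCAP chr9:64179043-64179682, score 60, +2227 bp) lay 83 and 88 bp from that of Snapc5. The GFP peak near Rpl7a (chr2:26914141-26914449, score 46, +1624 bp) was 464 bp from the TSS of Surf1, and that near Rps27 (chr3:90215839-90216304, score 72, −2420 bp) was 2361 bp from that of Rab13. The other 17 genes in neither list, among them Rps6, the target of S6 kinase, and Rpl8, had no midpoint of either list within this distance.

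The promoters of members were compared with all protein-coding promoters from 250 bases before to 50 bases after the main TSS, a window of 300 bases. The median GC content was 56.0% in both sets, while the CpG ratio, observed over expected, was 0.855 in members and 0.556 in all genes. By class the ratio was 0.88 in members of both lists and 0.809 in members of neither list, against 0.75 and 0.3 in all genes of those classes. The median of members in neither list was thus above that of all genes in both lists, although single members in neither list ranged from 0.0893 to 1.18.

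A pyrimidine run of 8 or more letters near the TSS was present in 34 of 80 members (42.5%, 32.3 to 53.4), against 16.4% of all genes. It was present in 14 of 29 members of both lists (48.3%, 31.4 to 65.6) and in 12 of 29 members of neither list (41.4%, 25.5 to 59.3), which overlap. It was present in 2 of 13 members with a GFP peak only (15.4%, 4.33 to 42.2) and in 6 of 9 with a SRCAP peak only (66.7%, 35.4 to 87.9), small classes whose intervals also overlap. At the base just before the annotated start, 81.2% of members had a pyrimidine, against 66.0% of all genes. At the first base of the annotated main transcript, the shares were 38.8% and 28.4%. The starts were taken from the annotation, and where transcripts begin in these cells was not measured. The runs and shares therefore describe annotated starts and do not show which members lack the TOP motif.

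**Figure D5:**
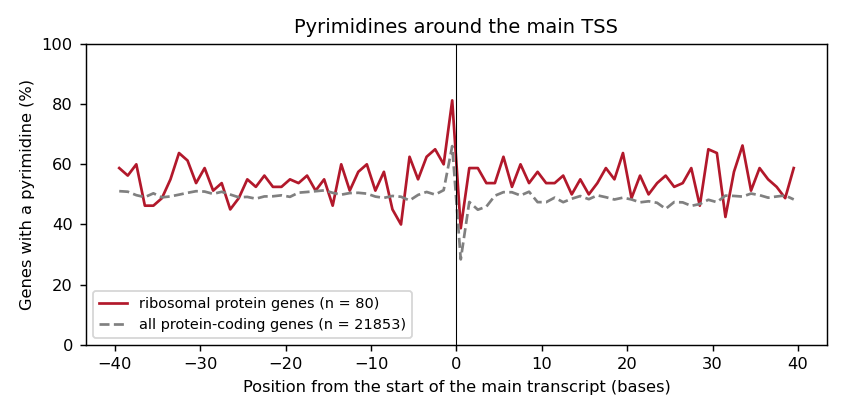
Share of genes (%) with a pyrimidine at each base from 40 before to 40 after the annotated start of the main transcript. The solid line is for ribosomal protein genes and the dashed line for all protein-coding genes with a sequenced window. Both lines peak just before the start and dip at the first base, and the solid line stands at 81.2% against 66.0% at that peak.

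Letters of 6 promoter motifs were searched on both strands of the same window, as exact matches that describe the sequence and not a bound site. The ETS letters CCGGAAG were present in 28 members (35.0%) against 11.2% of all promoters, with 11 of 29 members of both lists (37.9%), 13 of 29 of neither list (44.8%), 1 of 13 with a GFP peak only and 3 of 9 with a SRCAP peak only. The YY1 letters AAGATGGC were present in 5 members (6.25%, all promoters 3.12%), of which 4 were in neither list, 1 had a GFP peak only and 0 were in both lists. The SP1 letters GGGCGG were present in 52.5% (all promoters 45.4%), the CCAAT box in 30.0% (38.5%), the TATAAA letters in 10.0% (12.7%) and the E-box CACGTG in 12.5% (7.70%). The SP1 letters occurred in 17 of 29 members of both lists (58.6%, 40.7 to 74.5) and in 12 of 29 of neither list (41.4%, 25.5 to 59.3). For none of these letters did the intervals of members of both lists and of neither list lie apart.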

How the data were processed

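CUT&RUN libraries of SYAT mESCs, 1 with an antibody against GFP and 1 with an antibody against SRCAP, were grouped by the antibody their titles name. The authors deposited 1 peak list per library in mm10 (GRCm38) coordinates, with a whole-number score per peak whose meaning is not stated. Per the labels, STAR, Picard and MACS2 were used, without versions. The control and the treatment of reads that map to several copies are not given in the sources used here for CUT&RUN, and reads from exons of these genes can match processed copies. Peaks were called per library, not on pooled reads.

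Peak midpoints were assigned to genes when they lay from 1000 bp upstream to 500 bp downstream of the TSS of any GENCODE vM21 transcript, with Python 3.11.15, numpy 2.4.6, pandas 2.3.3, scipy 1.17.1 and pysam 0.24.0, and plots were drawn with matplotlib 3.10.9. The assignment was tested on simulated data. The main transcript was chosen by APPRIS tag, then transcript support level, then name number. Shares carry 95% Wilson intervals, which cover counting error only, and medians carry exact order-statistic intervals. With 1 library per antibody no test was made and no p-value is given. Members are named in their class, apart from some genes and 1 sequence that are not reported here by name but are kept in all counts. Positions and scores are given, with the same exceptions, for the 12 genes of both lists with the highest lower-of-2 score percentile and the 4 with the lowest, for all genes in 1 list, for Rpsa, Rplp0, Rplp1, Rplp2, Rpl5, Rpl11 and Rps27a, and for genes in neither list with a peak within 2500 bp. Other genes were named after their values were seen. The members and lists were chosen with earlier results of these data known. The alternatives were a score minimum, other windows, any overlap, the main TSS only, leaving out chromosomes 8 and X, and required overlap of both peaks. Leaving out peaks nearer to another coding TSS was added after the data were seen.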

Additional observations from a re-analysis of the deposited data

How the results depend on the processing

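Of 39 values under the alternatives, 34 stayed close to the main ones (counts within 1.5 times, medians within the interval of the main median), 5 moved and 0 changed direction. The 39 include the counts without peaks nearer to another coding TSS, a choice made after seeing the data, and all of those stayed close. When only peaks that reached their list's median score were used, the count of ribosomal protein genes with a GFP peak was 24, with a SRCAP peak 21, with both 15 and with neither 50. With a window of 2500 bp on either side of the TSS, 17 genes were in neither list. With that window 55 genes had a GFP peak, 45 a SRCAP peak and 37 both. Under the other alternatives the GFP count was 38 to 46, the SRCAP count 33 to 39 and the count in both lists 26 to 32. The medians of the peak position ran from −228 to −175.5 bp for GFP and from −169 to −133 bp for SRCAP. No paired analysis was possible because there was 1 library for each antibody, and none could be left out. Depth is unknown, so a gene without a peak is one for which none was listed, and the score was compared within a list only.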

Other observations

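Ribosomal protein pseudogenes named as copies in the annotation were counted in the same window. Of 294 such pseudogenes, 6 had a GFP peak (2.04%, 0.939 to 4.38) and 7 a SRCAP peak (2.38%, 1.16 to 4.83), and the 3 with both were Rpl17-ps6, Rpl29-ps2 and Rpl9-ps3. The share was far below that of the protein-coding members, 52.5% and 47.5%. Members were counted over all of their annotated TSS, and the number of windows was not matched between the sets. With the main TSS only, 39 of the 80 members had a GFP peak and 33 a SRCAP peak. The treatment of reads that map to several copies is not given, so a pseudogene without a peak is only one for which none was listed.

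The X chromosome carries 4 of the members. Of these, Rpl10 was in both lists, Rpl36a and Rpl39 in the GFP list only and Rps4x in neither, while of all 948 protein-coding genes of the X chromosome 13.6% had a GFP peak and 9.49% a SRCAP peak.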
